A study of Mus musculus with 21 samples.

Results

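The 38 genes described here encode proteins of the Polycomb and Trithorax systems: 19 of Polycomb repressive complex 1 (PRC1), 9 of Polycomb repressive complex 2 (PRC2) and 10 grouped as MLL and SET1 genes. The last group holds 9 genes of the MLL and SET1 methyltransferase complexes and Ash1l, a Trithorax methyltransferase that is not part of them. The members were taken by gene symbol from a list that uses no expression value but was drawn up with earlier results of these data known, and all 38 were found among the 33861 genes of the count table. RNA sequencing gave their expression in 21 samples from mouse, namely 12 of pluripotent cells in culture and 9 of individual epiblasts, the embryonic tissue from which the body forms. The study asked how pluripotent cells in culture compare with the epiblast.

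FS cells, labelled formative stem cells, grew in a medium called A3XR and came from 2 lines. Samples were taken at passages 10, 11 and 18 of line 1 and 12, 13 and 16 of line 2. The AF and AFX groups bear the line name E14, are labelled EpiSCs (epiblast stem cells), and grew in media with the same names as the groups. Each of these groups was sampled at passages 14, 15 and 16. Epiblasts came from embryonic day 5.0 (embryos 1, 2 and 4), day 5.5 (embryos 1, 2 and 3) and day 6.0 (embryos 1, 2 and 3). The oldest stage reads 6.5 in another label and is called E6.0 throughout. Each cultured sample held 1000 cells, and no allele, transgene or strain is given for any group. The replicates in culture are successive samplings of the same line, and the 2 FS lines form 1 group except where they are compared. P-values among FS, AF and AFX thus rest on the spread between passages and between the FS lines. The spread between passages may be technical. P-values of cultured cells against epiblasts also rest on the spread between embryos. FS differs from AF and AFX in both line and medium, which cannot be told apart, whereas AF and AFX share the line name.

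Polycomb and Trithorax proteins keep genes off or on through the marks they place on chromatin. PRC2 methylates histone H3 at lysine 27 through its catalytic subunit, Ezh2 or Ezh1, and needs Eed and Suz12. PRC1 ubiquitinates histone H2A through Rnf2 or Ring1, each paired with 1 of 6 Pcgf proteins. Canonical PRC1 adds a Cbx protein, which reads the PRC2 mark, and a Phc protein, while variant PRC1 carries Rybp or Yaf2 instead. The MLL and SET1 complexes methylate histone H3 at lysine 4 and share the core subunits Wdr5 and Ash2l. In pluripotent cells these systems act together on developmental genes that are silent but ready for use.

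Promoters are shown for 5 members that the results turn on: Bmi1, Jarid2, Mtf2 and Pcgf6, which fell together between E5.0 and the later epiblasts, and Kmt2d, which separated AFX from the other cultures. RefSeq promoter windows (GRCm38.p6) were matched for 30 of the 38 members. Each run is the 250 bases before a RefSeq transcription start, written 5′ to 3′ on the strand of the gene, with every CG dinucleotide in capitals. None of the 5 runs overlaps an annotated exon (GENCODE M21, GRCm38). The run of Jarid2 lies inside the annotated gene, and the other 4 lie directly before theirs.
Bmi1, chr2:18676768-18677017, plus strand: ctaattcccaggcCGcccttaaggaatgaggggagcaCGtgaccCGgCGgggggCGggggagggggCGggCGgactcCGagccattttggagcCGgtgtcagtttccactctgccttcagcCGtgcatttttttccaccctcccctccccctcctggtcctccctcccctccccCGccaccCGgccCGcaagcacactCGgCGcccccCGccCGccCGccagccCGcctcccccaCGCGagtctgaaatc
Jarid2, chr13:44730524-44730773, plus strand: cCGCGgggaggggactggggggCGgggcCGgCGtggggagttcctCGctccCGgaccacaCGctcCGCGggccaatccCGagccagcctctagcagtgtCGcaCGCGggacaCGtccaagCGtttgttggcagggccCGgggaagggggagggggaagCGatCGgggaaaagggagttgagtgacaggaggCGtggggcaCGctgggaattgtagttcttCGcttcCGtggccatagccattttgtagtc
Mtf2, chr5:108065424-108065673, plus strand: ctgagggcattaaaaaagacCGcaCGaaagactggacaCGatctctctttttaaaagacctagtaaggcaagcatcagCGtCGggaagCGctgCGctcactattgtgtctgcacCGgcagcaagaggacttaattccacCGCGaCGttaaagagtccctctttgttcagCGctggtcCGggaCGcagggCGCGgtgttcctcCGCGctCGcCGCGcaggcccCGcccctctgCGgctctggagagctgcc
Pcgf6, chr19:47050907-47051156, minus strand: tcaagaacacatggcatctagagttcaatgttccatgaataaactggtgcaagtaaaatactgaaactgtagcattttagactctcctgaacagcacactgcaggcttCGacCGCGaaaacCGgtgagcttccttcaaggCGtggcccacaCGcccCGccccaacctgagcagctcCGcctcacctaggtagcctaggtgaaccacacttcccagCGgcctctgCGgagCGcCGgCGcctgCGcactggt
Kmt2d, chr15:98871206-98871455, minus strand: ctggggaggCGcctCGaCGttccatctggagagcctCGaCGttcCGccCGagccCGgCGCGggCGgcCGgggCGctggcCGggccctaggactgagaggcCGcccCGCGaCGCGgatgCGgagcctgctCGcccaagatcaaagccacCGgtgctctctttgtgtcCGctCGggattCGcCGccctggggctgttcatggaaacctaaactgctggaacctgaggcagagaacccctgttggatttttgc
All 5 runs are rich in CG, with 14 in Pcgf6, 21 in Bmi1, 23 in Jarid2, 23 in Mtf2 and 26 in Kmt2d. Over the 44 windows of 300 bases that belong to members, the median was 23.5 CG, against 7 over all 32851 windows. The letters GGGCGG (GC box, which itself holds a CG) were found on either strand in 72.7% of member windows and 35.7% of all windows. CCAAT was found in 38.6% and 37.4%, and TATAAA in 2.27% and 13.6%. These matches describe letters only.

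Total counts per sample ran from 5827093 to 15916800. All 10 epiblast markers were detected in every group, with summed levels of 2269 to 4056 CPM (counts scaled to a common library size and composition) in cultured samples and 5491 to 9395 CPM in epiblasts. Markers of visceral endoderm, a neighbouring layer of the embryo, summed to 756.5, 933.3 and 327.6 CPM in E5.0 embryos 1, 2 and 4, against 47.6 to 91.0 CPM at E5.5 and 27.8 to 35.9 CPM at E6.0. Markers of feeder fibroblasts summed to 303.9 to 448.4 CPM in AF, 69.9 to 106.0 CPM in AFX and 35.8 to 93.8 CPM in FS. In culture the visceral endoderm markers summed to 64.5 to 96.9 CPM in AF, 15.2 to 26.9 CPM in AFX and 7.94 to 14.8 CPM in FS, and 2 of them, Afp and Apoa4, had no counts in any cultured sample. Markers of extraembryonic ectoderm summed to 90.3 to 174.3 CPM in AF, 44.7 to 95.2 CPM in AFX and 34.6 to 57.8 CPM in FS. Among these markers Elf5 had no counts in any AF or AFX sample, Cdx2 none in AFX and Rhox9 none in FS. AF passage 15 stood apart from its group: the chi-square per degree of freedom over all genes was 24.8 and 32.2 between it and AF passages 14 and 16, against 5.19 between those 2. Results that rest on it are given with and without it. Several markers of feeders, visceral endoderm and extraembryonic ectoderm had at most 3 counts in every sample of some groups, so their summed levels are given beside the results in place of counts of calls. Mitochondrial genes took 4.26% to 5.28% of counts in FS, 5.59% to 5.78% in AF and 5.14% to 5.73% in AFX. They took 8.15% to 8.95% at E5.0, 6.31% to 7.29% at E5.5 and 7.03% to 7.36% at E6.0. Genes with at least 5 counts numbered 15666 to 17827 in cultured samples and 14281 to 15693 in epiblasts. In bulk RNA, fewer cells of a type and less RNA per cell cannot be told apart.

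All 38 members passed the filter on low counts in every fit, and the lowest count of any member in any sample was 3. Per kilobase of exon, Phc1 (a canonical PRC1 subunit) was the most abundant member in every group, with means of 73.0 CPM per kilobase in AF to 99.8 at E5.5. Jarid2, Suz12 and Ezh2 led PRC2, at 32.5, 27.4 and 28.9 CPM per kilobase in FS. Kmt2d and Wdr5 led the MLL and SET1 genes, at 26.8 and 19.8 CPM per kilobase in FS. Cbx8, Pcgf5 and Phf19 were the scarcest members in FS, at 0.486, 0.367 and 0.756 CPM per kilobase.

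**Figure D1:**
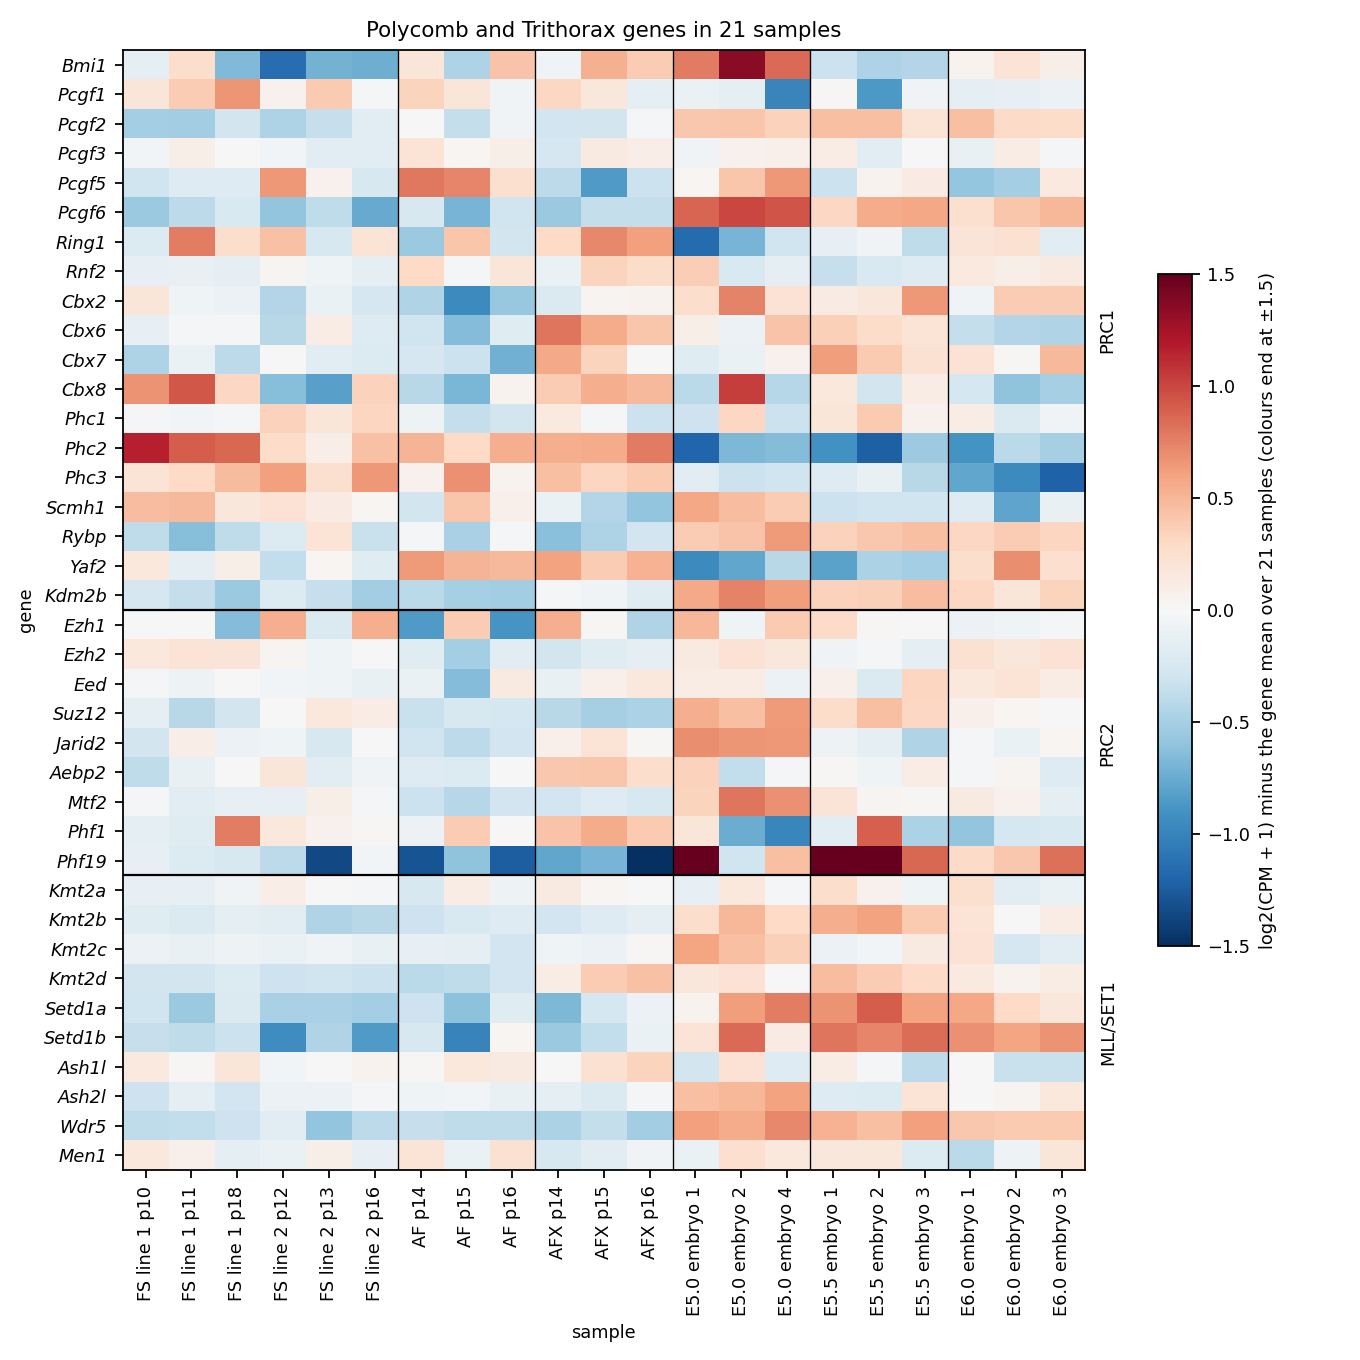
Level of each of the 38 members (rows, grouped by complex) in each of the 21 samples (columns, grouped by culture or embryonic stage), coloured by log2(CPM + 1) minus the mean of that gene over all samples, with colours ending at ±1.5. Pcgf6, Setd1a, Setd1b and Wdr5 are lower in the 12 cultured samples than in the 9 epiblasts, and Phc2 and Phc3 are higher.

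In several families of related subunits, 1 gene supplied most of the transcripts per kilobase in every group mean. Ezh2 made up 87.6% ± 4.38 (SD, n = 3, AFX) to 91.2% ± 0.29 (SD, n = 3, E6.0) of the sum of Ezh1 and Ezh2 as a group mean. Rnf2 made up 85.4% (AFX) to 93.2% (E5.0) of Rnf2 and Ring1, the 2 catalytic PRC1 subunits. Mtf2, which helps PRC2 to reach CG-rich DNA, made up 81.5% (E5.5) to 89.4% (AF) of Mtf2, Phf1 and Phf19. The Rybp share of Rybp and Yaf2 was 86.0% ± 1.38 (SD, n = 3) at E5.0, 84.0% ± 1.45 (SD, n = 3) at E5.5 and 70.6% ± 3.33 (SD, n = 3) at E6.0. In culture it was 68.5% ± 4.95 (SD, n = 6) in FS, 60.2% ± 4.21 (SD, n = 3) in AF and 56.2% ± 4.10 (SD, n = 3) in AFX. In the 6-gene Pcgf family no gene held a majority: Pcgf2 made up 33.3% (FS) to 39.8% (E5.5), and Pcgf6 19.5% (AF) to 33.8% (E5.0). In the Cbx family Cbx2 made up 38.3% (AFX) to 52.8% (E5.0) and Cbx7 29.6% (E5.0) to 38.9% (E6.0). Setd1a and Setd1b had near equal shares, with 46.9% to 54.1% for Setd1a, and Phc1 made up 88.3% to 95.9% of the Phc genes. Of the exon bases, 52.3% in Setd1a and 39.3% in Phf1 are shared with other annotated genes. How reads there were counted is not stated, so shares that involve these 2 genes are less certain. These shares were not tested and are given as levels.

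Group means of 9 members, Pcgf3, Rnf2, Phc1, Cbx8, Ezh1, Eed, Phf1, Kmt2a and Men1, passed the test in none of the 10 comparisons. Kmt2a, a founding MLL methyltransferase, had the smallest ratio of highest to lowest group mean of the 38, 1.11, from 250.0 CPM in AF to 277.9 CPM at E5.5. Its log2 difference between cultured cells and epiblasts was -0.05 with a 95% interval of -0.18 to 0.08. Eed and Rnf2, needed by every PRC2 and by most PRC1 complexes, had intervals of -0.33 to 0.01 and -0.04 to 0.28 for the same difference. For Cbx8 (0.316 to 3.73 CPM over all samples) and Phf1 (1.68 to 8.83 CPM) the counts were low. In addition 39.3% of the exon bases of Phf1 are shared with 2 other annotated genes, and whether counting used strand is not stated.

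The contrast between AFX and AF compared 2 media on cells of 1 line name. With edgeR's quasi-likelihood test at a Benjamini-Hochberg adjusted p under 0.05, 7 of 38 members were higher in AFX and 1 was lower, while 8.73% of all genes tested were called, 4.30% higher and 4.42% lower. The members higher in AFX were the Cbx genes Cbx2, Cbx6 and Cbx7, the variant PRC1 gene Kdm2b, the PRC2 cofactors Jarid2 and Aebp2, and the H3K4 methyltransferase Kmt2d. Pcgf5, a variant PRC1 subunit, was lower. The median log2 difference was 0.09 over the 38 members and 0.01 over all genes tested.

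Kmt2d (ENSMUSG00000048154, chr15:98831669-98871204) encodes the methyltransferase best known for marking enhancers. It measured 703.7, 846.9 and 883.7 CPM in AFX, 490.9, 497.5 and 533.5 CPM in AF, and 518.8 to 563.7 CPM with a median of 531.4 in FS. Every AFX sample was above every AF and FS sample, and FS and AF overlapped. The log2 difference from AF was 0.68 ± 0.10 (SE), with an adjusted p of 0.00137 by edgeR. Its share of the 4 MLL genes per kilobase was 51.5% ± 3.03 (SD, n = 3) in AFX and 41.5% ± 1.71 (SD, n = 3) in AF.

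Cbx6 (ENSMUSG00000089715, chr15:79823896-79834688) and Cbx7 (ENSMUSG00000053411, chr15:79915807-79971119) are neighbours, 81.1 kb apart. Cbx7 is the main Cbx protein of PRC1 in embryonic stem cells. Cbx6 measured 75.3, 63.4 and 57.7 CPM in AFX at passages 14, 15 and 16, 34.5, 26.9 and 37.8 CPM in AF, and 31.9 to 46.3 CPM with a median of 40.7 in FS. AFX stood above both other cultures without overlap, by 0.98 ± 0.17 (SE) on the log2 scale over AF (edgeR adjusted p = 0.00255). Cbx7 measured 85.5, 72.2 and 56.9 CPM in AFX, 47.9, 45.7 and 34.2 CPM in AF, and 41.3 to 57.1 CPM with a median of 50.3 in FS. Its AFX samples were above all AF samples, by 0.75 ± 0.17 on the log2 scale (edgeR adjusted p = 0.0143), and the lowest of them fell within the FS range.

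Cbx2, a canonical PRC1 subunit that compacts chromatin, measured 41.0, 49.0 and 49.3 CPM in AFX and 34.7, 24.1 and 31.7 CPM in AF, without overlap. Jarid2, which recruits and activates PRC2, measured 354.9, 387.3 and 339.4 CPM in AFX and 272.5, 255.5 and 275.9 CPM in AF. Aebp2, a cofactor in the same form of PRC2, measured 95.1, 95.4 and 85.9 CPM in AFX and 62.4, 61.9 and 71.7 CPM in AF. Kdm2b, which takes variant PRC1 to CG islands, also separated the 2 groups. It measured 196.1, 191.5 and 175.1 CPM in AFX and 150.0, 140.7 and 138.8 CPM in AF. The log2 differences were 0.62 ± 0.17 for Cbx2, 0.42 ± 0.12 for Jarid2, 0.49 ± 0.13 for Aebp2 and 0.39 ± 0.11 for Kdm2b (edgeR adjusted p of 0.0368, 0.0317, 0.0319 and 0.0469). Pcgf5 measured 3.29, 2.13 and 3.49 CPM in AFX and 8.76, 8.35 and 5.66 CPM in AF, a log2 difference of -1.34 ± 0.34 (edgeR adjusted p = 0.0254).

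The calls of Cbx6 and Kmt2d between AFX and AF held in every fit with 1 sample left out. Kdm2b lost its call without any 1 of the 6 samples (0.34 to 0.43 on the log2 scale). Jarid2 lost it without any sample but AFX passage 16 (0.37 to 0.44), and Aebp2 without passage 14 or 15 of either group (0.45 to 0.47). The loss for Pcgf5 came with the same 4 samples (-1.43 to -1.16), for Cbx2 with AF 15 or 16 or AFX 15 or 16 (0.48 to 0.65), and for Cbx7 with AF 16 or AFX 14 or 15 (0.58 to 0.74). The summed feeder and visceral endoderm markers were lower in every AFX sample than in every AF sample (69.9 to 106.0 against 303.9 to 448.4 CPM, and 15.2 to 26.9 against 64.5 to 96.9 CPM), and the extraembryonic ectoderm markers overlapped. The summed epiblast markers were higher in every AFX sample (3003 to 3259 against 2269 to 2861 CPM). The part of these marker levels in the member differences was not tested.

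**Figure D2:**
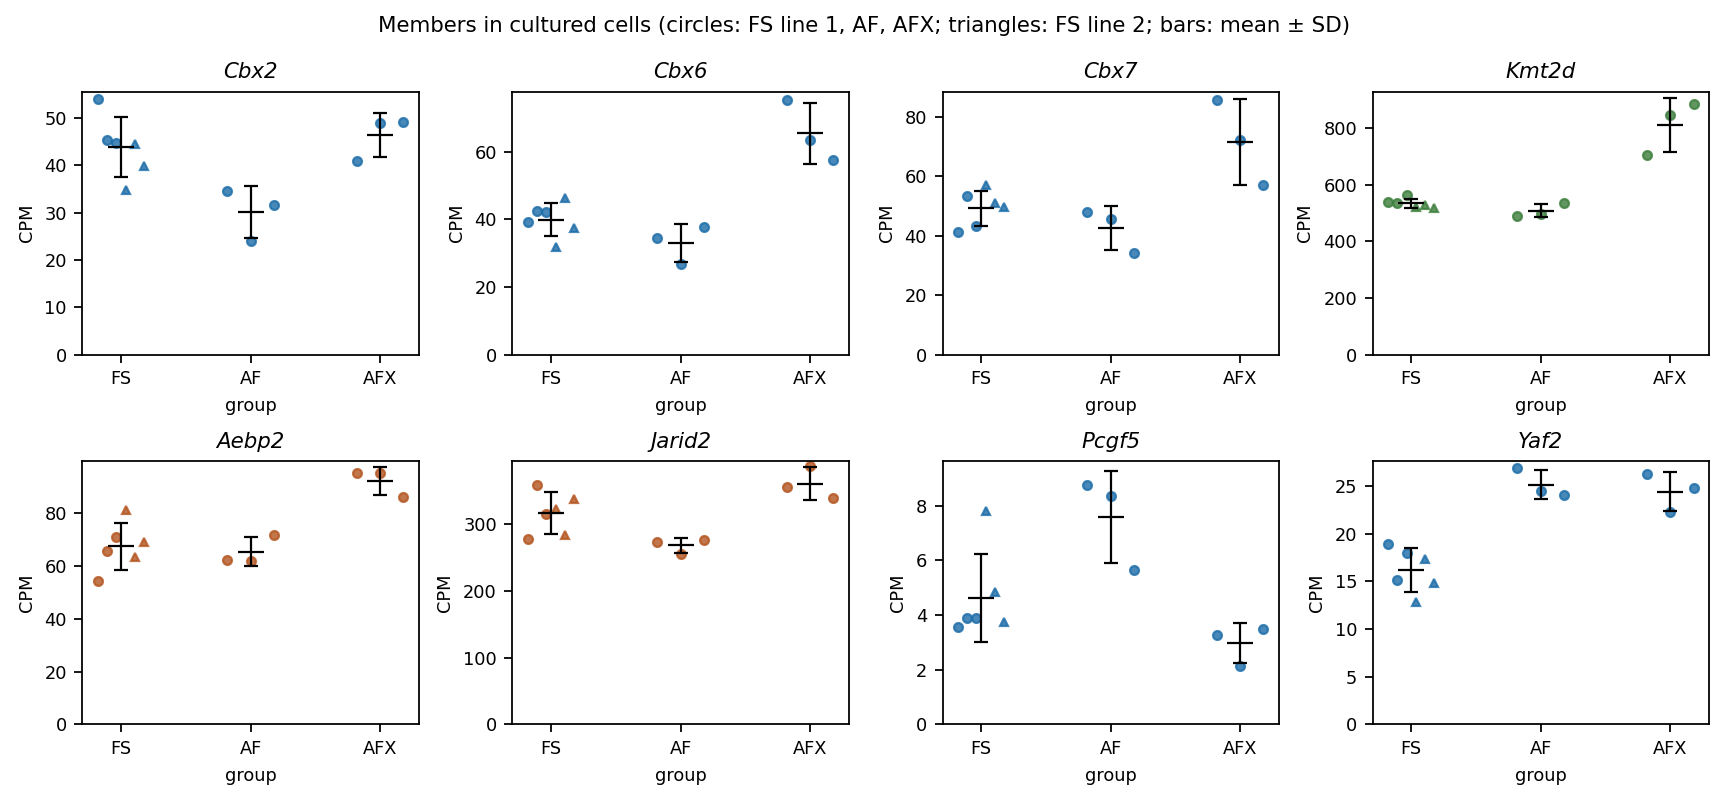
CPM of 8 members in the 12 cultured samples, by group, with each point a sample (triangles for FS line 2) and bars for the mean ± SD. Kmt2d and Cbx6 lie higher in all 3 AFX samples than in any FS or AF sample, and Yaf2 lies lower in all 6 FS samples than in any AF or AFX sample.

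FS cells differed from AF in 4 of 38 members, 3 higher and 1 lower, against 19.5% of all genes called by the same edgeR test, 8.86% higher and 10.6% lower. They differed from AFX in 5 members, all lower in FS, against 8.70% of all genes, 3.78% higher and 4.92% lower. Both comparisons share the FS samples, and each shares its other group with the contrast of AFX and AF. No member was called higher in FS than in AFX by edgeR, where 3 had an unadjusted p under 0.05 in that direction and DESeq2 called 2. The median log2 difference of the members was 0.07 from AF and -0.08 from AFX, against 0.02 and 0.00 over all genes tested. The summed markers of feeders, visceral endoderm and extraembryonic ectoderm were each lower in all 6 FS samples than in all 3 AF samples, and the mitochondrial share was also lower without overlap. The epiblast marker sum was higher in all FS samples than in all AF samples (2994 to 4056 against 2269 to 2861 CPM). Against AFX, the visceral endoderm sum was lower in all FS samples (7.94 to 14.8 against 15.2 to 26.9 CPM), and the feeder, extraembryonic ectoderm and epiblast sums overlapped. Their part in the member differences was not tested.

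Yaf2 (ENSMUSG00000022634, chr15:93284278-93336935), which pairs with Rnf2 in variant PRC1, was lower in FS than in both other cultures. It ran from 12.9 to 19.0 CPM with a median of 16.2 in FS, and measured 26.9, 24.5 and 24.0 CPM in AF and 26.2, 22.3 and 24.8 CPM in AFX. All 6 FS samples lay below all 6 others. The log2 difference was -0.65 ± 0.14 (SE) from AF and -0.61 ± 0.14 from AFX (edgeR adjusted p of 0.00434 and 0.0130). Its related gene Rybp overlapped between the groups, at 69.7 to 125.9 CPM in FS, 77.7 to 107.4 in AF and 70.3 to 89.4 in AFX.

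Ezh2, the catalytic PRC2 subunit, ran from 173.0 to 209.0 CPM with a median of 193.8 in FS and measured 159.1, 126.7 and 161.3 CPM in AF. The groups did not overlap, and the log2 difference was 0.36 ± 0.11 (edgeR adjusted p = 0.0269). Mtf2 ran from 94.9 to 114.2 CPM with a median of 101.8 in FS, and measured 85.6, 79.2 and 87.4 CPM in AF. Cbx2 ran from 34.8 to 54.1 CPM with a median of 44.6 in FS, just above the AF samples given earlier. Their log2 differences from AF were 0.28 ± 0.09 and 0.53 ± 0.15 (edgeR adjusted p of 0.0397 and 0.0234). Eed and Suz12, the other core PRC2 genes, were not called between FS and AF. Without AF passage 15, only Yaf2 remained called between FS and AF, and Ezh2 stood at 0.26 and Cbx2 at 0.39 on the log2 scale. Cbx2 was also lost without AF passage 16 (0.56), Ezh2 without FS line 1 passage 18 (0.34), and Mtf2 without any AF sample or without FS passage 10, 13 or 16 (0.24 to 0.30). With FS line 2 alone, Cbx2 and Ezh2 lost their calls (0.38 and 0.25), and Mtf2 lost its call with either line alone (0.24 with line 1 and 0.31 with line 2).

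Against AFX, Cbx6 and Kmt2d were lower in FS by -0.72 ± 0.14 and -0.61 ± 0.09 on the log2 scale (edgeR adjusted p of 0.00378 and 0.000423). Aebp2, at 54.4 to 81.2 CPM with a median of 67.4 in FS, was lower than in AFX without overlap, with a log2 difference of -0.46 ± 0.11. Cbx7 was lower by -0.55 ± 0.14 with overlapping samples (edgeR adjusted p of 0.0200 for Aebp2 and 0.0286 for Cbx7). Cbx6 and Kmt2d kept these calls without any 1 sample. Yaf2 lost its call without AFX passage 14 or 16 (-0.60 to -0.54) and Aebp2 without AFX passage 14 or 15 (-0.43). Cbx7 lost it without AFX passage 14 or 15 or any of FS passages 10, 16 and 18 (-0.55 to -0.39), and without AFX passage 15 the number of members called was 3. With FS line 1 alone Yaf2 lost its call (-0.49), with FS line 2 alone Aebp2 did (-0.39), and Cbx7 did with either (-0.63 and -0.47).

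**Figure D3:**
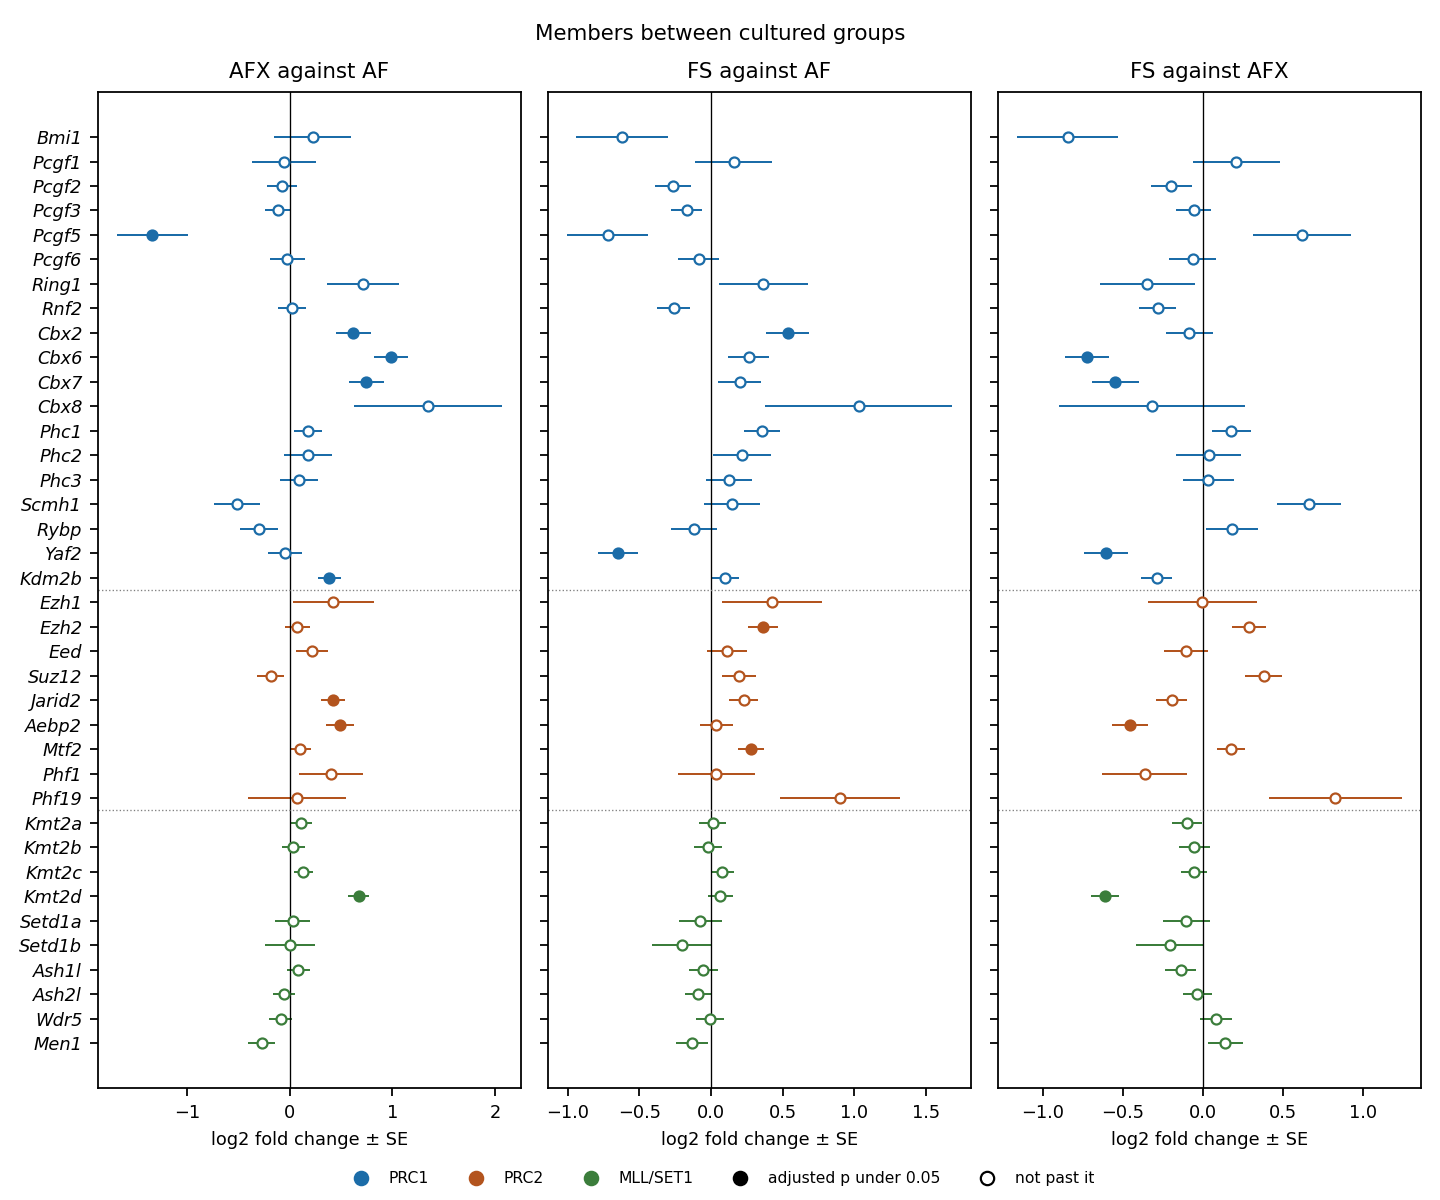
Log2 fold change ± SE of each of the 38 members (rows) in the contrasts among the cultured groups, with filled points for an adjusted p under 0.05. Kmt2d, Cbx6, Cbx7 and Aebp2 are called in both contrasts with AFX, and the 3 contrasts share samples.

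Between the 2 FS lines, 1 of 38 members was called, against 3.85% of all genes, 2.65% higher in line 2 and 1.20% lower. Phc2 (ENSMUSG00000028796, chr4:128654702-128752881), a polyhomeotic subunit through which PRC1 complexes cluster, measured 93.0, 77.5 and 74.7 CPM in line 1 and 49.7, 43.9 and 55.7 CPM in line 2. The lines did not overlap, and the log2 difference of line 2 from line 1 was -0.73 ± 0.13 (SE, edgeR adjusted p = 0.00460). Its relative Phc1 ran the other way without passing the test, at 444.2 ± 4.03 CPM (SD, n = 3) in line 1 and 553.1 ± 34.0 CPM (SD, n = 3) in line 2, with an edgeR adjusted p of 0.196. Suz12 measured 130.5, 107.0 and 118.2 CPM in line 1 and 142.2, 159.7 and 154.4 CPM in line 2 (edgeR adjusted p = 0.0746). The lines also differed in the Y-linked gene Kdm5d, given below, and line and Y-linked expression cannot be told apart.

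In the epiblast, members fell with stage more often than they rose. From E5.0 to E5.5, 6 of 38 members fell, against 6.82% of all genes called, 3.07% higher and 3.75% lower. None was called higher by edgeR, where 3 had an unadjusted p under 0.05 in that direction and DESeq2 called none. From E5.5 to E6.0, 1 member rose and 2 fell, against 4.43% of all genes, 1.89% higher and 2.54% lower. From E5.0 to E6.0, 1 rose and 11 fell, against 21.8% of all genes, 10.2% higher and 11.6% lower. These comparisons share stages, so the members' values are given by stage.

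Jarid2 (ENSMUSG00000038518, chr13:44729474-44921643) measured 544.6, 533.5 and 529.1 CPM at E5.0, 319.5, 304.1 and 246.5 CPM at E5.5, and 333.5, 312.9 and 344.4 CPM at E6.0. Every E5.0 embryo stood above every later embryo, and the later stages overlapped. The log2 change was -0.90 ± 0.10 (SE) to E5.5 and -0.71 ± 0.10 to E6.0 (edgeR adjusted p of 0.000456 and 0.000281). Mtf2, another PRC2 cofactor, measured 135.2, 186.8 and 173.4 CPM at E5.0, 122.2, 110.6 and 108.5 CPM at E5.5, and 117.9, 111.7 and 96.8 CPM at E6.0. It was also highest at E5.0 without overlap, changing by -0.55 ± 0.13 and -0.62 ± 0.13 (edgeR adjusted p of 0.0259 and 0.00460). Suz12, a core PRC2 subunit, measured 208.4, 196.0 and 222.5 CPM at E5.0, 173.7, 195.8 and 177.8 CPM at E5.5, and 150.6, 145.8 and 142.2 CPM at E6.0. The 3 stages did not overlap and stood in the order of age, and only the change to E6.0 was called, at -0.53 ± 0.10 (edgeR adjusted p = 0.00150). Ezh2 showed no such order, with means of 204.1 ± 5.36 CPM, 172.2 ± 7.28 CPM and 208.1 ± 4.83 CPM (SD, n = 3) at the 3 stages, and was not called.

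Bmi1 (ENSMUSG00000026739, chr2:18677018-18686629), the Pcgf protein of canonical PRC1 also known as Pcgf4, measured 17.1, 25.9 and 18.1 CPM at E5.0. It measured 7.46, 6.65 and 6.81 CPM at E5.5 and 9.98, 11.2 and 10.2 CPM at E6.0. Each E5.0 embryo was above all later ones, and the E6.0 embryos were all above the E5.5 embryos. The log2 change was -1.56 ± 0.26 to E5.5 and -0.97 ± 0.26 to E6.0 (edgeR adjusted p of 0.00408 and 0.0157). Pcgf6, a subunit of a variant PRC1 that silences germline genes, measured 76.0, 83.6 and 80.3 CPM at E5.0, 51.1, 61.0 and 61.9 CPM at E5.5, and 48.7, 55.3 and 58.7 CPM at E6.0. It fell by 0.48 to E5.5 and by 0.58 to E6.0 on the log2 scale (SE 0.13 for both, edgeR adjusted p of 0.0474 and 0.00752), with E5.0 above all later embryos.

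Yaf2 was the member that rose. It measured 8.19, 9.42 and 12.4 CPM at E5.0, 9.26, 11.9 and 11.6 CPM at E5.5, and 20.5, 28.0 and 20.2 CPM at E6.0. The E6.0 embryos were above all younger ones, and E5.0 and E5.5 overlapped. The log2 change to E6.0 was 1.18 ± 0.26 from E5.0 and 1.06 ± 0.26 from E5.5 (edgeR adjusted p of 0.00543 and 0.0309). Cbx6 was lower at E6.0, with 33.4, 31.3 and 31.1 CPM against 55.0, 52.3 and 49.7 CPM at E5.5 and 45.6, 40.4 and 57.8 CPM at E5.0. E6.0 did not overlap either younger stage, and the log2 change was -0.72 ± 0.16 from E5.5 and -0.61 ± 0.16 from E5.0 (edgeR adjusted p of 0.0214 and 0.0161).

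Other PRC1 members that fell from E5.0 to E6.0 were Phc3, Scmh1 and Kdm2b, with log2 changes of -0.78 ± 0.23, -0.90 ± 0.28 and -0.39 ± 0.09. Of the MLL and SET1 genes, Ash2l and Kmt2c were highest at E5.0. Ash2l measured 187.2, 193.6 and 209.2 CPM at E5.0 against 118.9 to 158.1 CPM in the 6 later embryos. Kmt2c, a partner enzyme of Kmt2d at enhancers, measured 202.6, 183.6 and 171.9 CPM at E5.0 against 112.3 to 155.7 CPM later. Both fell to E5.5 (-0.59 ± 0.12 and -0.49 ± 0.13) and stayed called at E6.0 (-0.47 ± 0.12 and -0.55 ± 0.13). Kmt2b, an MLL methyltransferase that acts at promoters, fell between E5.5 and E6.0, from 250.9, 261.3 and 224.9 CPM to 197.3, 172.5 and 185.8 CPM (log2 change -0.41 ± 0.11, edgeR adjusted p = 0.0417).

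**Figure D4:**
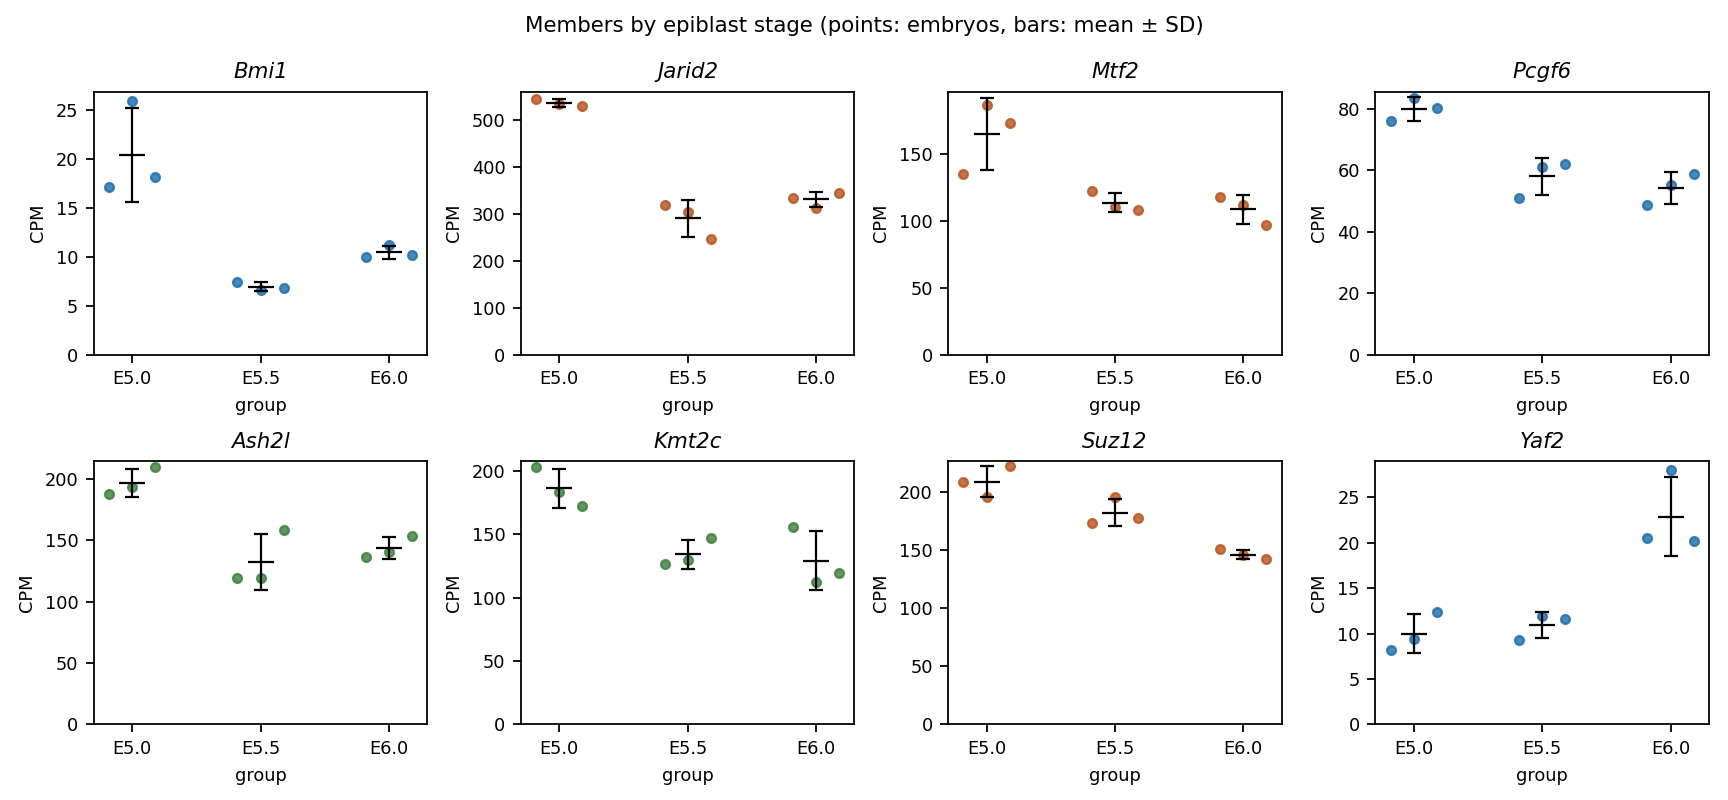
CPM of members in the 9 single epiblasts, by embryonic stage, with each point an embryo and bars for the mean ± SD. Jarid2, Mtf2, Bmi1 and Pcgf6 are highest in the 3 E5.0 embryos, and Yaf2 is highest in the 3 E6.0 embryos.

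Leaving out single embryos ended many of these calls. Jarid2 and Bmi1 kept their calls between E5.0 and E5.5 in each such fit. Ash2l lost its call there without E5.5 embryo 1 or 2 (-0.52 to -0.51), and Mtf2 without any embryo but E5.0 embryo 1 (-0.60 to -0.45). Pcgf6 and Kmt2c lost theirs without any 1 of the 6 embryos (-0.51 to -0.39 and -0.54 to -0.41). The same was true of all 3 calls between E5.5 and E6.0, where the log2 change was -0.75 to -0.67 for Cbx6, 0.90 to 1.15 for Yaf2 and -0.46 to -0.35 for Kmt2b. Between E5.0 and E6.0, Jarid2, Suz12, Mtf2, Pcgf6 and Yaf2 kept their calls. There Bmi1 lost its call without E5.0 embryo 2 or any E6.0 embryo (-1.01 to -0.76), Scmh1 without E5.0 embryo 1 or any E6.0 embryo (-1.03 to -0.68), Phc3 without E5.0 embryo 1 or E6.0 embryo 2 or 3 (-0.78 to -0.65) and Cbx6 without E5.0 embryo 4 or E6.0 embryo 2 or 3 (-0.58 to -0.43). Kdm2b lost it without E6.0 embryo 2 (-0.33), Kmt2c without E6.0 embryo 2 or 3 (-0.47 to -0.44) and Ash2l without E6.0 embryo 1 or 2 (-0.44 to -0.42). Without E6.0 embryo 2 the number of members called between E5.0 and E6.0 was 5, and without E6.0 embryo 3 it was 7.

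Visceral endoderm markers moved with stage, with sums of 327.6 to 933.3 CPM at E5.0, 47.6 to 91.0 CPM at E5.5 and 27.8 to 35.9 CPM at E6.0. Epiblast markers moved the other way, with sums of 5491 to 5710 CPM at E5.0, 6808 to 7384 CPM at E5.5 and 7762 to 9395 CPM at E6.0. The mitochondrial share was 8.15% to 8.95% at E5.0, above that of every later embryo (6.31% to 7.36%), and E5.0 embryo 2 had the fewest counts of all samples, 5827093. The part of these values in the member differences was not tested.

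Cultured cells and epiblasts differed in 24 of 38 members, 6 higher and 18 lower in culture, while 61.8% of all genes were called in the same edgeR fit, 33.9% higher and 27.9% lower. The members' share of 24 in 38 was thus near that of all genes. By complex, 7 were lower among the 10 genes grouped as MLL and SET1, with Ash1l the 1 higher (80.0% called), 5 were lower among the 9 PRC2 genes (55.6%), and 5 were higher and 6 lower among the 19 PRC1 genes (57.9%). The shares of PRC1 and PRC2 were near the 61.8% of all genes, and the difference between complexes was not tested. The median log2 difference was -0.30, -0.23 and 0.02 in that order, against 0.09 over all genes tested. Proliferation markers were lower in culture for 11 of 12 genes tested and epiblast markers for 8 of 10. Feeder markers summed to 35.8 to 448.4 CPM in culture and 12.5 to 33.2 CPM in epiblasts, without overlap, and visceral endoderm markers to 7.94 to 96.9 CPM and 27.8 to 933.3 CPM, with overlap. The mitochondrial share was 4.26% to 5.78% in culture and 6.31% to 8.95% in epiblasts, without overlap. The part of these values in the member differences was not tested. Cultured samples were 1000 cells and embryonic samples 1 epiblast each, so the source and the amount of material cannot be told apart.

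Among the shared core subunits, Wdr5 ran from 60.8 to 81.7 CPM with a median of 70.5 in the 12 cultured samples and from 120.5 to 151.8 CPM with a median of 132.4 in the 9 epiblasts. The 2 sets did not overlap, and the log2 difference was -0.92 ± 0.06 (SE, edgeR adjusted p = 9.91e-12). Setd1b, a SET1 methyltransferase, ran from 32.7 to 68.0 CPM with a median of 50.9 in culture and from 72.2 to 120.1 CPM with a median of 107.3 in epiblasts. Setd1a, its close relative, ran from 25.0 to 38.2 CPM with a median of 30.7 and from 42.3 to 77.4 CPM with a median of 62.3. Both sets were apart, with log2 differences of -1.04 ± 0.12 and -0.93 ± 0.10 (edgeR adjusted p of 2.35e-07 and 6.59e-08). For Setd1a, 52.3% of the exon bases are shared with 2 other annotated genes. Kmt2b was lower in culture by -0.57 ± 0.06, also without overlap. Kmt2d, Ash2l and Kmt2c were lower by -0.31 ± 0.05, -0.30 ± 0.06 and -0.25 ± 0.06, with overlapping samples. Ash1l, which methylates another histone site, was higher by 0.25 ± 0.08 with overlap.

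In PRC1, 2 of the 3 polyhomeotic genes, Phc2 and Phc3, were higher in culture. Phc2 ran from 43.9 to 93.0 CPM with a median of 60.0 in culture and from 16.9 to 30.5 CPM with a median of 25.1 in epiblasts. Phc3 ran from 23.4 to 36.7 CPM with a median of 29.1 and from 9.16 to 20.9 CPM with a median of 17.9. Neither gene overlapped between the sets, and the log2 differences were 1.38 ± 0.13 and 0.90 ± 0.11 (edgeR adjusted p of 1.12e-08 and 1.90e-07). Phc1, the most abundant member per kilobase, did not pass the test (-0.08, 95% interval -0.25 to 0.09). Yaf2, Ring1 and Pcgf1 were higher by 0.66 ± 0.11, 0.59 ± 0.21 and 0.58 ± 0.23 with overlapping samples. Yaf2 (0.46) and Ring1 (0.54) lost their calls in a fit with all cultured samples as 1 group and all epiblasts as the other. Ring1 also lost its call without AF passage 15 (0.46), and Pcgf1 without any 1 of 9 of the 21 samples (0.46 to 0.58): FS line 1 passage 18, AF 14 and 15, AFX 14 and 15, E5.0 embryo 4, E5.5 embryo 2 and E6.0 embryos 1 and 2.

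The variant PRC1 genes Pcgf6, Kdm2b and Rybp were lower in culture. Pcgf6 ran from 23.9 to 34.9 CPM in culture and from 48.7 to 83.6 CPM in epiblasts (-1.06 ± 0.08, edgeR adjusted p = 3.00e-10). Kdm2b ran from 135.2 to 196.1 CPM and from 227.0 to 335.9 CPM (-0.75 ± 0.06, edgeR adjusted p = 2.44e-10). Rybp ran from 69.7 to 125.9 CPM and from 135.4 to 170.9 CPM (-0.71 ± 0.09, edgeR adjusted p = 4.65e-07). All 3 were separate between the sets. Pcgf2, the Bmi1-related subunit of canonical PRC1, was lower by -0.61 ± 0.08 without overlap, and Cbx2 and Cbx7 were lower by -0.62 ± 0.10 and -0.31 ± 0.09 with overlap.

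In PRC2, Phf19, a cofactor related to Mtf2, had the largest difference of any member, -2.27 ± 0.33 (edgeR adjusted p = 3.86e-06). It was scarce in culture, at 1.16 to 4.89 CPM with a median of 2.87. The epiblasts varied widely, with 34.4, 3.92 and 7.31 CPM at E5.0, 16.7, 20.9 and 10.1 CPM at E5.5, and 6.43, 7.01 and 9.80 CPM at E6.0. E5.0 embryo 1 was the highest, and E5.0 embryo 2 lay within the cultured range. Suz12, Mtf2, Jarid2 and Ezh2 were lower in culture by -0.59 ± 0.07, -0.46 ± 0.07, -0.25 ± 0.06 and -0.23 ± 0.06, all with overlapping samples.

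FS cells were also set against the 2 later stages, E5.5 and E6.0, in comparisons that share the FS samples. Against E5.5, 4 members were higher in FS and 14 lower, with 43.8% of all genes called (23.0% higher and 20.8% lower). Against E6.0, 3 were higher and 11 lower, with 38.9% of all genes called (20.1% higher and 18.9% lower). Visceral endoderm markers summed to 7.94 to 14.8 CPM in FS, below both stages (47.6 to 91.0 and 27.8 to 35.9 CPM). Feeder markers at 35.8 to 93.8 CPM were above both stages (16.8 to 28.4 and 30.6 to 33.2 CPM), and extraembryonic ectoderm markers at 34.6 to 57.8 CPM overlapped E5.5 and lay below E6.0 (38.2 to 59.7 and 75.3 to 202.7 CPM). Proliferation markers were lower in FS for 10 and 9 of 12 genes and epiblast markers for 7 and 8 of 10, and the mitochondrial share was below both stages. The part of these values was not tested. Phc2 and Phc3 were higher in FS than at both stages: Phc2 by 1.58 ± 0.22 and 1.29 ± 0.21, and Phc3 by 0.69 ± 0.17 and 1.48 ± 0.18. Setd1b, Setd1a, Wdr5, Pcgf6, Kdm2b and Rybp were lower than at both, with Setd1b at -1.34 ± 0.18 and -1.20 ± 0.18. Yaf2 was higher in FS than at E5.5 (0.56 ± 0.18) and lower than at E6.0 (-0.50 ± 0.17). It lost the first call without E5.5 embryo 1 (0.46) and the second without E6.0 embryo 2 (-0.33). Jarid2, Mtf2 and Ezh2 were called against neither stage. Calls against E5.5 were also lost for Cbx2 without FS line 2 passage 12 or E5.5 embryo 3 (-0.40 to -0.26), for Cbx6 without FS line 2 passage 12 or E5.5 embryo 1 (-0.35 to -0.33), and for Scmh1 without any E5.5 embryo (0.58 to 0.62). Against E6.0, Cbx7 lost its call without embryo 3 (-0.34) and Scmh1 without embryo 2 (0.44). With FS line 1 alone, Cbx2 (-0.32) and Cbx6 (-0.34) were not called against E5.5, nor Yaf2 (-0.39) against E6.0. With FS line 2 alone, Scmh1 (0.47) and Yaf2 (0.46) were not called against E5.5, nor Cbx7 (-0.38) and Scmh1 (0.51) against E6.0.

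**Figure D5:**
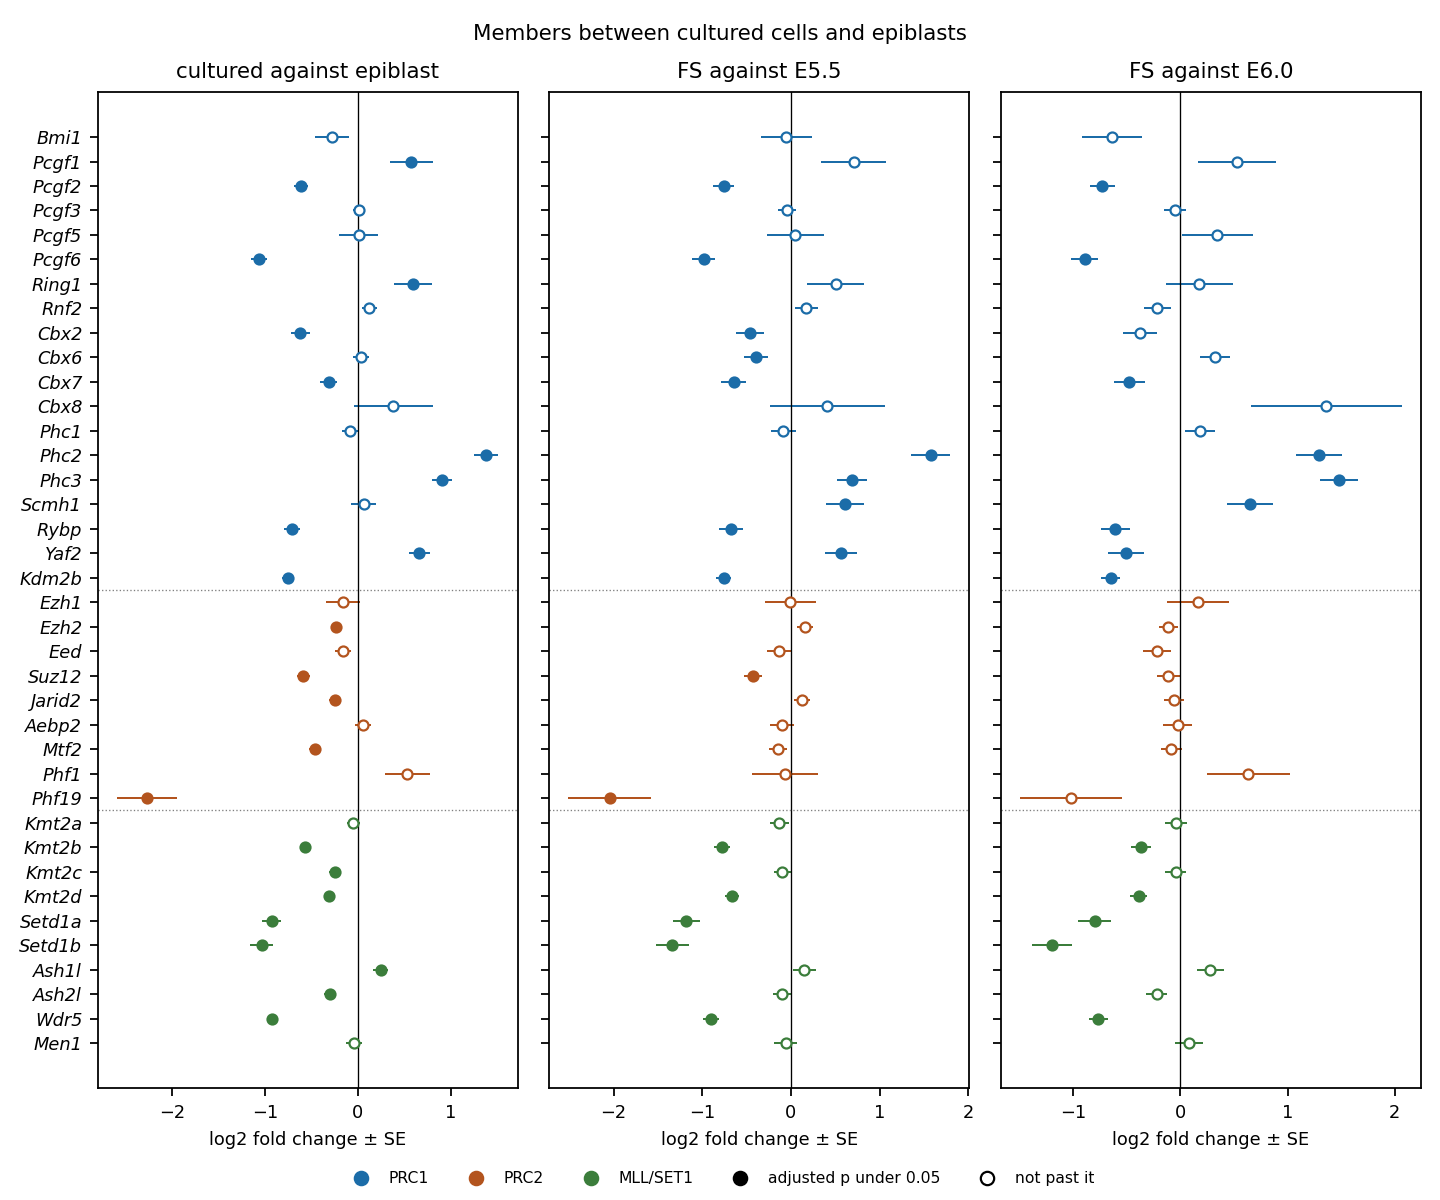
Log2 fold change ± SE of each of the 38 members (rows) between cultured cells and epiblasts and between FS and each of E5.5 and E6.0, with filled points for an adjusted p under 0.05. Setd1a, Setd1b, Wdr5 and Pcgf6 are lower and Phc2 and Phc3 higher in all 3 panels, which share samples.

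Other genes of the same systems were taken from lists of cofactors. Of 23 further PRC1 genes tested, 6 were higher and 13 lower in culture than in epiblasts, where 61.8% of all genes were called, 33.9% higher and 27.9% lower. Bcor, a subunit of the Pcgf1 complex, measured 71.3 ± 14.8 CPM (SD, n = 12) in culture and 195.7 ± 57.9 CPM (SD, n = 9) in epiblasts, a log2 difference of -1.45 (edgeR adjusted p = 9.18e-10). Of 11 further genes listed with PRC2, 1 was higher and 9 lower, against the same shares of all genes. This list includes Bap1, Asxl1, Asxl2 and Asxl3, which are not PRC2 subunits. Epop, a PRC2 cofactor of pluripotent cells, measured 30.8 ± 6.15 CPM (SD, n = 12) in culture and 143.5 ± 89.9 CPM (SD, n = 9) in epiblasts. Among stages it stood at 248.6 ± 71.9 CPM (SD, n = 3) at E5.0, 116.4 ± 14.5 CPM at E5.5 and 65.5 ± 13.8 CPM at E6.0. Its log2 change to E6.0 was -1.94 (edgeR adjusted p = 0.00014). From E5.0 to E6.0, 6 of the 23 further PRC1 genes rose and 6 fell. Of the 11 genes listed with PRC2, 1 rose and 3 fell. Between these stages 21.8% of all genes were called, 10.2% higher and 11.6% lower. L3mbtl2, of the Pcgf6 complex, fell with Pcgf6, from 194.9 ± 9.02 CPM (SD, n = 3) at E5.0 to 116.2 ± 15.5 CPM at E5.5 and 95.8 ± 11.4 CPM at E6.0 (log2 change -1.04, edgeR adjusted p = 6.42e-05). It was higher in AFX, at 103.1 ± 4.44 CPM, than in AF, at 61.3 ± 10.1 CPM (SD, n = 3, edgeR adjusted p = 0.0068). Of the 23 further PRC1 genes, 3 were higher and 1 lower in AFX than in AF. In that contrast 8.73% of all genes were called, 4.30% higher and 4.42% lower.

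Of 12 cofactors of the MLL and SET1 complexes tested, 3 were higher and 6 lower in culture, 75.0% of them called against 61.8% of all genes. Psip1, which tethers MLL complexes to chromatin, rose with stage from 359.2 ± 36.1 CPM (SD, n = 3) at E5.0 to 499.0 ± 15.1 CPM at E5.5 and 911.6 ± 38.4 CPM at E6.0 (log2 change 1.33, edgeR adjusted p = 4.38e-07). Dpy30, a core subunit, fell from 125.0 ± 26.0 CPM at E5.0 to 78.9 ± 8.19 CPM at E5.5 and 80.9 ± 2.05 CPM at E6.0. Between the FS lines, 2 of the 8 demethylases of the Polycomb and Trithorax marks are given by their levels. Kdm6a, an X-linked enzyme that removes the PRC2 mark, measured 118.0 ± 9.88 CPM (SD, n = 3) in line 2 and 78.7 ± 0.58 CPM in line 1 (edgeR adjusted p = 0.0226). Kdm5d, which is Y-linked, measured 29.7 ± 8.83 CPM in line 2 and had at most 3 counts in each line 1 sample.

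Hox genes, classic targets of Polycomb repression, had their highest summed level in AF. The sum of the 39 Hox genes was 57.0, 23.6 and 21.3 CPM in AF at passages 14, 15 and 16, at most 1.49 CPM in FS and at most 1.33 CPM in AFX. It was 10.9, 2.35 and 14.4 CPM at E5.0, 3.67 to 6.25 CPM at E5.5 and 1.04 to 2.24 CPM at E6.0. Every AF sample stood above every other sample, and 2 of the 3 E5.0 embryos stood above all later embryos. Of the 39 genes, 37 in FS and 38 in AFX had at most 3 counts in every sample, against 9 in AF and 26 at E5.0. Only 4 passed the filter in cultured samples, and no count of calls is given because they passed through AF. Of 30 developmental regulators listed as Polycomb targets, the summed level was 192.5 to 232.6 CPM in AF, 71.2 to 137.6 CPM in AFX and 46.9 to 117.4 CPM in FS. In epiblasts it was 90.4 to 153.8 CPM at E5.0, 32.9 to 62.4 CPM at E5.5 and 30.6 to 51.7 CPM at E6.0. Only 17 of the 30 passed the filter in cultured samples, some with at most 3 counts in every sample of 1 group, so no count of calls is given for them either. Gata4, Gata6 and Sox17 are also visceral endoderm markers here, and Cdx2 and Gata3 extraembryonic ectoderm markers. The summed feeder level was also highest in AF, and among cultures so was that of visceral endoderm. The part of these markers in these levels was not tested.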

How the data were processed

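RNA of 12 cultured samples and 9 single epiblasts was prepared as total RNA, per the labels' protocols. The authors deposited whole-number gene counts without normalisation, 1 column per sample. The submitters' processing notes name Trim Galore, TopHat2 2.1.0, featureCounts 1.5.0 and the mm10 build, and the annotation and strand setting are not given in the sources used here. Members were matched by symbol, and exon lengths and positions came from GENCODE M21. The members and lists were chosen with earlier results of these data known.

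Counts were fitted over all genes with edgeR 4.0.16 in R 4.3.3 (filterByExpr, TMM scaling, robust quasi-likelihood F-tests, two-sided) and adjusted by Benjamini-Hochberg over all genes tested, with a threshold of 0.05. Cultured contrasts used the 12 cultured samples, stage contrasts the 9 epiblasts, and the others all 21 samples with 6 groups. Both FS lines formed 1 group except in the contrast of the lines and in the alternatives that separate them. Cultured against epiblast is the mean of 3 groups against the mean of 3. Means in the text are of TMM-scaled CPM over all samples, with SD. Intervals are log2 fold change plus or minus a normal 95% range. DESeq2 1.42.0 was an alternative. The steps were tested on simulated data. All 38 members are named, and of other lists the genes with the largest changes past the threshold, up to 3 per direction, with the genes printed chosen from these after their values were seen. Counts ran from 5827093 to 15916800 per sample, the highest-count 5 noncoding loci took 19.9% to 31.6% of them, and the labels give no batch.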

Additional observations from a re-analysis of the deposited data

Results flagged for a closer look

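In the 6 FS samples, 3 members had 1 sample far from the other 5. Pcgf5 was 7.79 CPM in FS line 2 at passage 12, against 3.57 to 4.85 CPM in the others. Phf1 was 7.98 CPM in FS line 1 at passage 18, against 3.66 to 4.90 CPM. Phf19 was 1.37 CPM in FS line 2 at passage 13, against 3.62 to 4.89 CPM. The distance to the nearest sample was over 0.625 of the whole range for each, and among the 38 members examined chance alone gives such a gap in about 1 of 20. All 3 genes have low counts. Phc2 differed between the FS lines, with a log2 difference of -0.73 for line 2 from line 1 (edgeR adjusted p = 0.0046).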

How the results depend on the processing

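Of 95 calls of a member in 1 of the 10 comparisons, 59 held under every alternative tried. Held calls were 21 of 24 for cultured against epiblast, 14 of 18 for FS against E5.5 and 11 of 14 for FS against E6.0. They were 1 of 4 for FS against AF, 2 of 5 for FS against AFX and 2 of 8 for AFX against AF. The 1 call between the FS lines held. Among stages 2 of 6 held for E5.5 against E5.0, 0 of 3 for E6.0 against E5.5 and 5 of 12 for E6.0 against E5.0. None of 1877 alternative values changed sign. Of these values 1709 stayed past the threshold and 168 did not. Leaving out 1 sample gave 1 to 5 called members for FS against AF (4 with all samples), 3 to 7 for FS against AFX (5), 2 to 6 for AFX against AF (8), 1 to 2 between the FS lines (1), 2 to 5 for E5.5 against E5.0 (6), 0 in every case for E6.0 against E5.5 (3; DESeq2 called 4 with all samples), and 5 to 12 for E6.0 against E5.0 (12). For FS against AFX, the DESeq2 Wald test gave 8, FS line 1 alone 3 and the FS lines as separate groups 8. Between the FS lines, DESeq2 gave 2, as did a fit of the 2 lines alone. A fit of E6.0 and E5.5 alone gave 7. The causes were not tested.

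Same-numbered samples were compared for pairing. Correlations of their deviations were -0.13, -0.09 and 0.20 for AF and AFX and -0.05 to 0.10 for the epiblasts. For AF and AFX samples of different number they ran from -0.26 to 0.30. With so few samples per group, these values cannot decide whether the numbers pair the samples. With a replicate block of passage number AFX against AF gave 4 called members in place of 8, and with a block of embryo number E5.5 against E5.0 gave 3 in place of 6. Over all genes, leaving out 1 sample lowered the count of called genes by over 1.5 times in 6 comparisons. It went from 1397 to 820 for FS against AFX (without AFX 16; 830 without AFX 15), from 1401 to 732 for AFX against AF (without AFX 15; 922 without AFX 14), from 618 to between 316 and 365 between the FS lines (without passage 11, 12, 13 or 16), from 971 to between 371 and 571 for E5.5 against E5.0 (without any E5.5 embryo), from 631 to between 238 and 372 for E6.0 against E5.5 (without any of the 6 embryos), and from 3100 to 1905 or 2010 for E6.0 against E5.0 (without E6.0 embryo 2 or 3). For the FS lines, E5.5 against E5.0 and E6.0 against E5.5, DESeq2 gave 1099, 1590 and 1075, no filter 1298, 1659 and 1107, and a fit of the 2 groups alone 1045, 453 and 1445. The embryo block gave 421 for E5.5 against E5.0. Cbx8 had 3 to 34 counts per sample, the fewest of the members, and precision at such counts is limited by counting error.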
